A study of Mus musculus with 12 samples.

Results

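The Krüppel-like factors studied here were 10 zinc finger transcription factor genes, Klf2, Klf3, Klf4, Klf5, Klf6, Klf7, Klf9, Klf10, Klf11 and Klf13. They were chosen by gene symbol, as the rows of the gene table with these 10 names. The table held 51490 genes, of which 15037 had enough reads to be tested, and all 10 factors were among these.

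Krüppel-like factors bind GC-rich and CACCC sequences through 3 zinc fingers near the end of the protein and are sorted by the cofactors that the rest of the protein recruits. Klf9, Klf10, Klf11 and Klf13 recruit the Sin3 corepressor. Klf3 recruits the corepressor CtBP, and Klf2, Klf4, Klf5, Klf6 and Klf7 act mainly as activators. Klf10 was first described as an early gene induced by transforming growth factor beta (TGFβ), and several of the family are transcribed within minutes to hours of a growth factor or serum signal.

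The cells were immortalized mouse embryonic palatal mesenchyme (iMEPM) cells, the connective tissue precursor cells of the roof of the mouth, derived from a male Cdkn2a-/- embryo, so that all groups lacked Cdkn2a. One line carried a lentiviral scramble shRNA and the other an shRNA against Srsf3 (shSrsf3), which encodes an RNA-binding splicing factor. Each line was a single sorted stable population, so an effect of the line and an effect of the shRNA cannot be told apart. Both lines were serum starved for 24 hr in medium with 0.1% serum and then left unstimulated (-PDGF-AA) or given 10 ng/mL PDGF-AA, a ligand of the receptor PDGFRα, for 1 hr (+PDGF-AA), with 3 biological replicates in each of the 4 groups.

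Depth ran from 30958966 to 76123359 estimated read pairs assigned to genes per sample. Srsf3 itself stood at 199 to 212 library-size-scaled counts (CPM) in scramble -PDGF-AA samples and 161 to 164 CPM in shSrsf3 -PDGF-AA samples, and at 215 to 231 against 161 to 170 CPM with PDGF-AA. Its log2 fold change in shSrsf3 cells was -0.34 without and -0.43 with ligand (edgeR quasi-likelihood test, adjusted p = 7.95e-06 and 9.54e-07). These are mRNA values. By western blot the study reported a decrease of Srsf3 protein in the shSrsf3 line that was larger than that of the mRNA here. Summed over 12 palatal mesenchyme markers, the level was 35303 to 37088 CPM in scramble and 31578 to 33855 CPM in shSrsf3 cells. Col1a1, Col1a2 and Vim made up most of it, at means of 18235, 12477 and 4327 CPM in unstimulated scramble cells. Msx1, Osr2 and Meox2 were at group means of at most 1.70, 5.23 and 0.140 CPM. Without ligand 2 of the 11 tested were called higher in shSrsf3 cells and 5 lower, beside 22.2% and 23.7% of all tested genes. With ligand 2 were called higher and 4 lower, beside 20.3% and 20.7%. Markers of other cell types summed to at most 6.15 CPM for 6 epithelial genes, 34.6 CPM for 5 endothelial genes, 1.74 CPM for 5 blood genes, 31.5 CPM for 4 neural genes and 31.2 CPM for 4 skeletal muscle genes, and Adgre1, Hbb-bt, Sox10, Elavl4 and Myod1 were at 0 in every sample. The mesenchymal, epithelial, endothelial and neural sums were lower in every shSrsf3 than in every scramble sample. Tek made up most of the endothelial sum, while Cdh5 and Kdr, endothelial markers at a mean of 1.48 CPM or less in every group, were called higher in shSrsf3 cells. The skeletal muscle sum was higher in every unstimulated shSrsf3 sample (29.9 to 31.2 CPM) than in the unstimulated scramble samples (23.98 to 25.1 CPM). The part of these markers in the knockdown comparisons was not tested. The 3 libraries of lowest mapping rate were replicate 2 of the stimulated scramble cells and both replicate 1 and replicate 2 of the unstimulated ones, and values that moved without them are given below.

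To order the genes by level, CPM was divided by the length in kilobases of the longest protein-coding transcript of each gene. In unstimulated scramble cells Klf4, a reprogramming factor best known from epithelia, was the highest at 98.0 ± 2.97 CPM per kb (SD, n = 3), and Klf6, a broadly expressed activator, followed at 57.2 ± 2.81 CPM per kb. Klf3 took the third place at 25.6 ± 1.47 CPM per kb, ahead of Klf13 at 19.5 ± 0.730, Klf10 at 18.9 ± 0.501 and then Klf2, whose samples ran from 15.2 to 18.1 CPM per kb. Klf5, which is tied to proliferation, stood at 13.9 ± 2.54 CPM per kb, and Klf7, known from neurons, at 13.0 ± 1.69 CPM per kb. Klf9 at 7.11 ± 0.974 and Klf11, the closest relative of Klf10, at 1.87 ± 0.122 CPM per kb were the lowest. Of neighbours in this order, Klf13 and Klf10, Klf2 and Klf5, and Klf5 and Klf7 overlapped in their samples, while the other neighbours did not.

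The order moved with ligand and with knockdown at a few genes. Klf10 rose to 49.7 ± 1.45 CPM per kb in stimulated scramble cells and to 35.2 ± 0.782 in stimulated shSrsf3 cells. With this length it took the third place in both, below Klf6 at 57.7 and 71.5 CPM per kb. Klf13 stood at 9.50 ± 0.686 CPM per kb in unstimulated shSrsf3 cells, where its range overlapped that of Klf5. With the length of the Ensembl canonical transcript, Klf3 was at 40.1 CPM per kb in unstimulated scramble cells and the order of the 10 in that group was the same. In stimulated shSrsf3 cells Klf10 had rank 4 with the canonical length, below Klf3 at 41.5 CPM per kb, and rank 4 with the median length. In stimulated scramble cells it kept rank 3 with both, but with the median length it lay above Klf6 (70.5 against 57.8 CPM per kb). With the median length of each gene's protein-coding transcripts, Klf4 was at 346, Klf3 at 206 and Klf6 at 57.2 CPM per kb in unstimulated scramble cells. Klf3 and Klf6 thus changed places there, as did Klf10 at 26.8 and Klf13 at 22.05 CPM per kb.

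**Figure D1:**
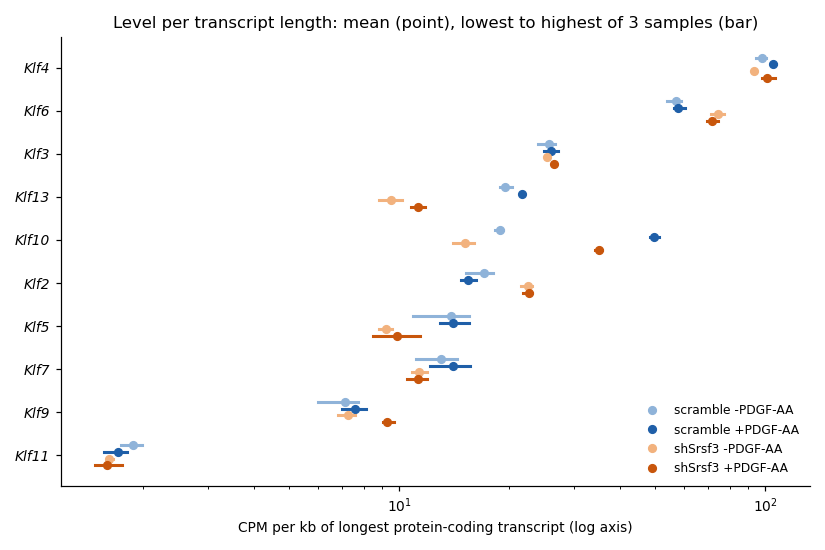
Level of each Krüppel-like factor in CPM per kb of its longest protein-coding transcript, on a log axis, for the 4 groups. Points are group means and bars run from the lowest to the highest of 3 samples, and Klf10 moves from 18.9 to 49.7 CPM per kb in scramble cells while Klf4 and Klf6 stay at the top of the order in every group.

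The 10 genes lie on 10 different chromosomes of the mouse genome (GRCm39, GENCODE annotation), so none is a neighbour of another. Klf10 is at chr15:38291703-38300959 on the minus strand, Klf13 at chr7:63536099-63588663 on the minus strand and Klf9 at chr19:23118187-23148497 on the plus strand. Klf2 is at chr8:73072726-73075502, Klf6 at chr13:5911481-5920393 and Klf5 at chr14:99536086-99552473, all 3 on the plus strand. Runs of 31 bases that a gene's transcripts share with another gene's made up 0 to 5.81% of each gene. The highest share was that of Klf4 with predicted genes such as Gm48923. Transcripts were compared on their own strand only, so genes that overlap on the opposite strand are not in this share. Such overlaps are annotated at Klf2, Klf3, Klf7, Klf9, Klf10 and Klf13. How certain the assignment of reads was for each gene was not tested.

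The promoters of 3 genes are shown because Klf10 had the largest ligand difference, Klf13 the largest knockdown difference, and Klf9 was the one promoter without a GC box. Each window runs from 250 bases before to 50 bases from the transcription start of the Ensembl canonical transcript, read 5′ to 3′ on the gene's strand from GRCm39. Capitals mark the GC box, GGGCGG on either strand, the textbook binding site of the Sp and Krüppel-like families.
Klf10 promoter, chr15:38300910-38301209, minus strand: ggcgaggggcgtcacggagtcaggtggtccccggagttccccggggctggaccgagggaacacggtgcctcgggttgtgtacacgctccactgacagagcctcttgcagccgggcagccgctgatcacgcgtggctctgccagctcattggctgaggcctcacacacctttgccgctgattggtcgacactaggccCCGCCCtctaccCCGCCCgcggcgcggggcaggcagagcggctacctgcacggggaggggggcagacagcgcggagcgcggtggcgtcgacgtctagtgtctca
Klf13 promoter, chr7:63588614-63588913, minus strand: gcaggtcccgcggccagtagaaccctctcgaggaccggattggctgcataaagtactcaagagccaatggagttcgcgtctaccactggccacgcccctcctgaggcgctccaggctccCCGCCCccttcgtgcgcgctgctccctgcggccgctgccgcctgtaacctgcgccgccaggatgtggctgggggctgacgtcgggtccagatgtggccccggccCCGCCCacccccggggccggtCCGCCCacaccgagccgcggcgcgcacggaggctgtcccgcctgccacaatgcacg
Klf9 promoter, chr19:23117937-23118236, plus strand: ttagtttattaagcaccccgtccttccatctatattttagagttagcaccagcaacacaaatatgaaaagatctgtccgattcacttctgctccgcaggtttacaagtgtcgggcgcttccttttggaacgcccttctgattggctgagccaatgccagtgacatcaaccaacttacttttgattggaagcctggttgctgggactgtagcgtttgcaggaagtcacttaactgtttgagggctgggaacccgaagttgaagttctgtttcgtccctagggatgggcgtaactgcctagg

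The Klf10 window held 2 GC boxes, 54 and 42 bases before the start, and the Klf13 window 3. A GC box was found in 9 of the 10 promoters, against 42.5% of 21757 protein-coding promoters of the same length, and 8 matches, the most of any, lay in the Klf3 window. The windows were also rich in G and C, at 62.7 to 80.3% in the 9 genes and 47.7% in Klf9, beside a median of 54.3% over all promoters. The CACCC box (CCACCC) was present in 5 of 10 (32.5% of all), and the E-box CACGTG in Klf4, Klf6 and Klf11 (7.82% of all). A MEF2 site was found only in Klf6 among the 10, at the far end of its window (0.542% of all).

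Sites tied to fast transcription after serum or growth factors were also looked for. No window held a CArG box, the site of serum response factor (1.54% of all promoters), a CRE (TGACGTCA, 2.45%) or an AP-1 site (TGACTCA or TGAGTCA, 4.70%). These sites are rare in all promoters, so their absence from 10 windows of this length does not set the factors apart. A TATA box (TATAAA or TATAAT, 17.5%) was absent too. In the 3′ UTR of the canonical transcript, the pentamer ATTTA, the core of AU-rich elements in short-lived mRNAs, occurred at least once in all 10 genes, against 68.6% of 20480 genes. It occurred 18 times in Klf7, 12 times in Klf9, 4 times in Klf10, 3 times in Klf13 and once in Klf2 and Klf4. A longer UTR has more room for the pentamer, and all but those of Klf2 and Klf4 were longer than the median of 1115.5 bases (737 to 6266 bases). Per kb the Klf10 UTR held 2.68 and the Klf13 UTR 0.582 such pentamers, beside a median of 1.32 over all genes. Among all genes the 10 ran per kb from percentile 35.3 (Klf13) to 77.1 (Klf7), with Klf2 at 50.9 and Klf4 at 43.8.

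**Figure D2:**
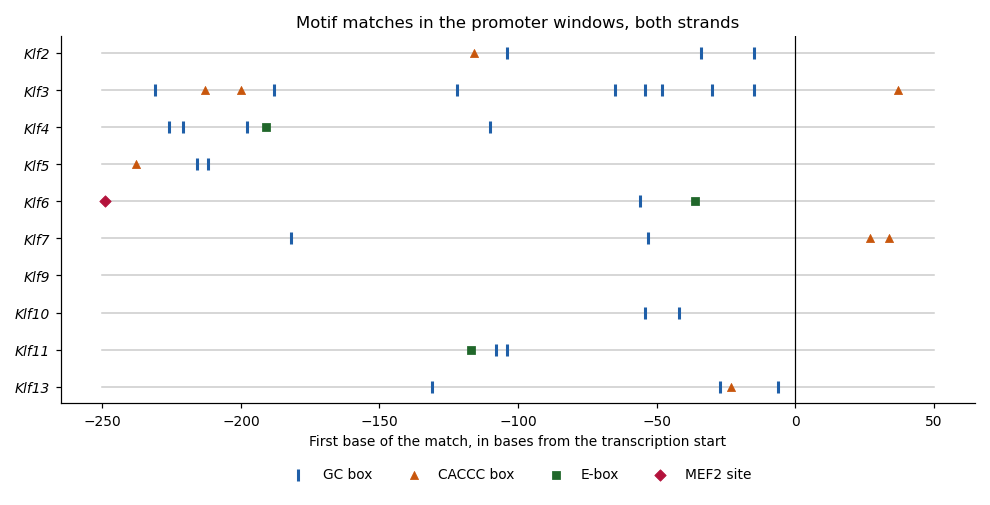
Positions of GC boxes, CACCC boxes, E-boxes and MEF2 sites in the promoter window of each Krüppel-like factor, in bases from the transcription start (0), with each mark at the first base of the match. Klf9 has no mark, and Klf10 has 2 GC boxes in the 60 bases or so before its start.

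The first question was which of these factors answered 1 hr of PDGF-AA in scramble cells. Klf10, a Sin3-recruiting repressor and early growth factor response gene, stood at 56.0, 58.6 and 58.6 CPM in the unstimulated samples and at 151, 157 and 148 CPM in the stimulated samples. Every stimulated sample was above every unstimulated one, by a margin far wider than the spread within either group. The log2 fold change was 1.39 (SE 0.0485, 95% CI 1.29 to 1.499), a 2.63-fold rise (adjusted p = 3.03e-09, edgeR quasi-likelihood test). By p-value Klf10 ranked 1 of the 15037 genes tested, and by size of the rise it ranked 43.

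In the shSrsf3 line Klf10 stood at 42.8, 48.8 and 47.2 CPM without ligand and at 105, 108 and 109 CPM with it. Here too the groups were far apart and the samples of each group close together. The log2 fold change was 1.22 (SE 0.0488, 95% CI 1.11 to 1.32), a 2.32-fold rise (adjusted p = 2.02e-08), and Klf10 again ranked 1 by p-value. The call held in all 12 fits that left out a single sample, with log2 fold changes of 1.37 to 1.42 in scramble and 1.16 to 1.26 in shSrsf3 cells.

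The other 9 Krüppel-like factors did not pass the edgeR test in either line. DESeq2, run as an alternative, also called Klf4 and Klf13 in both lines and Klf9 in shSrsf3 cells. It called 498 of the 15037 genes higher in scramble and 158 in shSrsf3 cells. Of the 10 factors, edgeR called 1 higher (adjusted p of 0.05 or less) and 0 lower in scramble cells. Of all tested genes, 2.00% were called higher and 2.04% lower there. In shSrsf3 cells 1 was called higher and 0 lower, beside 0.426% and 0.140% of all tested genes. At the stricter threshold that also asks for a 2-fold change, Klf10 passed in both lines, as did 0.200% of all tested genes in scramble and 0.0399% in shSrsf3 cells. At an unadjusted p under 0.05 there were 4 factors in each line, of 2643 such genes in scramble and 1420 in shSrsf3 cells.

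Klf4 and Klf13 were higher with ligand in both lines, with no overlap of samples, but did not pass in edgeR. DESeq2 gave adjusted p of 0.0428 and 0.0399 for Klf4 and 0.0355 and 0.000710 for Klf13 in scramble and shSrsf3 cells. Klf13, a Sin3-recruiting factor known from lymphocytes and heart, stood at 123, 130 and 121 CPM without and 137, 140 and 138 CPM with ligand in scramble cells. Its values in shSrsf3 cells were 56.3, 60.9 and 65.1 CPM without and 75.1, 71.8 and 68.9 CPM with ligand. The groups did not overlap in either line, and the log2 fold changes were 0.15 (SE 0.0508, adjusted p = 0.125) and 0.24 (SE 0.0521, adjusted p = 0.0565). For Klf4 they were 0.10 (SE 0.0371, adjusted p = 0.151) and 0.12 (SE 0.0371, adjusted p = 0.222), also with no overlap of the samples.

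Klf9, a gene induced by glucocorticoid and thyroid hormones, was not called with ligand by edgeR in either line. DESeq2 called it in shSrsf3 cells (adjusted p = 0.00208). In the shSrsf3 line it stood at 53.6, 58.2 and 59.6 CPM without and 71.3, 71.1 and 76.4 CPM with ligand, with no overlap, and a log2 fold change of 0.35 (SE 0.0856, adjusted p = 0.101). In scramble cells the samples overlapped, at 60.9, 60.1 and 47.2 CPM without and 55.1, 63.9 and 60.1 CPM with ligand (log2 fold change 0.093, adjusted p = 0.609). Without the 3 libraries of lowest mapping rate, the value in scramble cells was 0.29 (adjusted p = 0.0606), near that in shSrsf3 cells. These uncalled values for Klf9 and Klf13 in shSrsf3 cells lay close to the threshold. With only the 6 shSrsf3 samples in the fit, adjusted p was 0.00322 for Klf9 and 0.0416 for Klf13, and without scramble -PDGF-AA replicate 3 it was 0.00714 and 0.0335, so that 3 factors were then called in shSrsf3 cells.

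The remaining 6 factors, Klf2, Klf3, Klf5, Klf6, Klf7 and Klf11, were not called with ligand. Klf2, an activator known from endothelium under flow, had a log2 fold change of -0.14 in scramble cells (adjusted p = 0.268) and 0.0033 in shSrsf3 cells. Without scramble -PDGF-AA replicate 3, the value for Klf2 in scramble cells was -0.20 (adjusted p = 0.0210). Klf3, Klf5, Klf6, Klf7 and Klf11 lay between -0.13 and 0.11 in scramble cells and between -0.05 and 0.10 in shSrsf3 cells. Without the 3 libraries of lowest mapping rate, the scramble values were 0.28 for Klf5, 0.25 for Klf7, 0.11 for Klf6, 0.088 for Klf3, -0.043 for Klf11 and -0.014 for Klf2, none of them called (adjusted p of 0.195 or more). Over the 10 factors the median log2 fold change was 0.059 and 0.080, beside -0.0096 and -0.0044 over all genes tested. The samples did not overlap for 3 of the 10 factors in scramble cells, where this held for 18.8% of all tested genes, and for 5 in shSrsf3 cells, where it held for 18.01%.

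**Figure D3:**
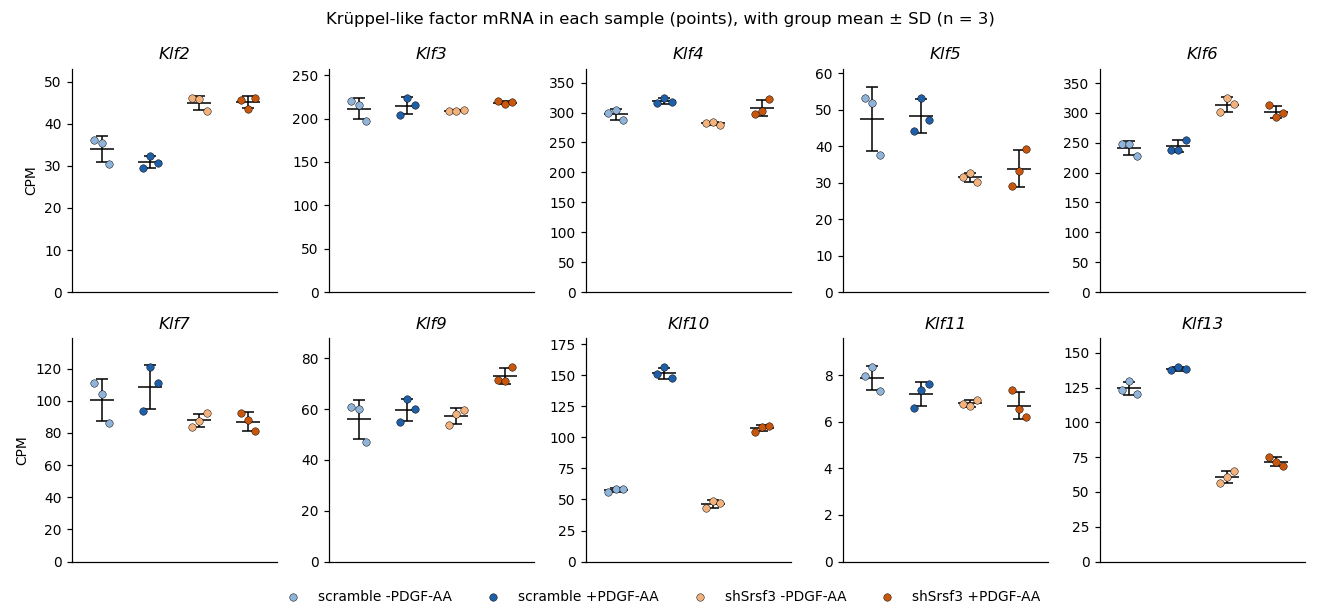
CPM of each Krüppel-like factor in all 12 samples (points in replicate order), with the group mean and SD (n = 3), each panel starting at 0. Klf10 rises with PDGF-AA from 57.7 to 152 CPM in scramble and from 46.3 to 107 CPM in shSrsf3 cells, and Klf13 is lower in every shSrsf3 sample than in any scramble sample.

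The 5 genes whose pattern over the 12 samples was most like that of Klf10, by Pearson correlation of log2 CPM among 12241 genes, were Slc30a1 (r = 0.987), Egr3 (0.973), Nuak2 (0.970), Hk2 (0.967) and Usp36 (0.960). All samples share the same 2 lines, and the correlations describe these libraries only. Slc30a1, a zinc exporter, went from 19.4 to 33.1 CPM with ligand in scramble and from 18.5 to 28.7 CPM in shSrsf3 cells. Egr3, a zinc finger early response factor, went from 12.5 to 66.2 CPM in scramble and from 13.3 to 36.6 CPM in shSrsf3 cells. Nuak2, a kinase of the AMPK family, went from 43.7 to 75.4 and from 38.0 to 56.2 CPM.

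Among 22 other early response genes, such as the Egr, Fos and Jun genes, 14 were called higher and 0 lower with PDGF-AA in scramble cells, and 6 passed the 2-fold threshold. Of all tested genes 2.00% were called higher and 2.04% lower there, and 0.200% passed the 2-fold threshold. In shSrsf3 cells 9 of the 22 were called higher and 1 lower, beside 0.426% and 0.140% of all tested genes. The 1 lower was Fos, which is named here after its value was seen (log2 fold change -0.58). The median log2 fold change of the 22 was 0.46 in scramble and 0.41 in shSrsf3 cells. Egr3 rose by 2.41 on the log2 scale in scramble cells (adjusted p = 3.08e-07) and by 1.48 in shSrsf3 cells (adjusted p = 0.000106). Egr4 rose by 1.95 in scramble cells (edgeR adjusted p = 4.07e-05), and its value in shSrsf3 cells, 0.56, did not pass. Its level was low, at group means of 0.73 to 2.80 CPM.

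**Figure D4:**
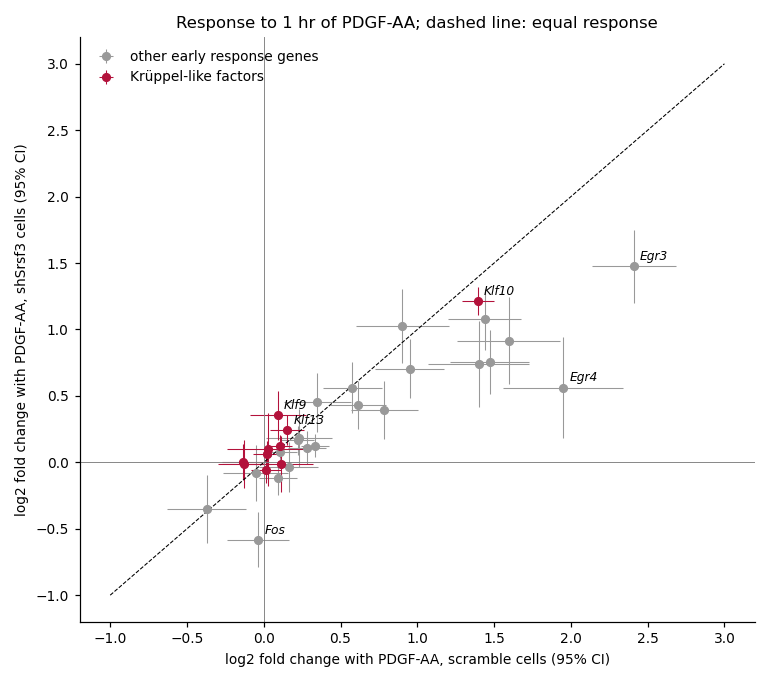
Log2 fold change with PDGF-AA in scramble cells (x axis) and shSrsf3 cells (y axis), with 95% confidence intervals, for the 10 Krüppel-like factors and 22 other early response genes, and a dashed line where both responses are equal. Klf10 lies at 1.39 and 1.22, apart from the other 9 Krüppel-like factors, which lie between -0.14 and 0.35.

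Whether the ligand response differed between lines was tested as an interaction. For Klf10 the rise in shSrsf3 cells was smaller by 0.18 on the log2 scale (interaction -0.18, SE 0.0679, 95% CI -0.33 to -0.03, unadjusted p = 0.0197, adjusted p = 0.874). The difference did not pass the test over all genes, and over the other fits its adjusted p ran from 0.245 to 1.00. For Klf9 the interaction was 0.26 (SE 0.121, 95% CI 0.00 to 0.52, unadjusted p = 0.0492, adjusted p = 0.874), and without the 3 libraries of lowest mapping rate it was 0.069 (adjusted p = 0.910). No Krüppel-like factor was called in edgeR, 0 were called in DESeq2, and 2 had an unadjusted p under 0.05, of 833 such genes in all, while 0.0133% of all tested genes were called.

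The second question was how the factors differed between the shSrsf3 and scramble lines. Without ligand 2 of 10 were called higher and 4 lower in shSrsf3 cells, beside 22.2% and 23.7% of all tested genes. With ligand 3 were called higher and 4 lower, beside 20.3% and 20.7%. The 2-fold threshold was passed by 1 factor without ligand (5.75% of all tested genes) and 0 with ligand (5.42% of all tested genes). The median log2 fold change of the 10 was -0.13 without and -0.08 with ligand, beside -0.02 and -0.01 over all genes. Each ligand comparison shares samples with each knockdown comparison, so their values are not independent. In a bulk sample, fewer cells that express a gene and less RNA of it per cell cannot be told apart.

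Of the Sin3-recruiting factors, Klf13 had the largest difference. Its values of 121 to 130 CPM in unstimulated scramble samples and 56.3 to 65.1 CPM in unstimulated shSrsf3 samples left a wide gap, as did those with ligand, 137 to 140 against 68.9 to 75.1 CPM. The log2 fold change was -1.04 (SE 0.0518, 95% CI -1.15 to -0.93, adjusted p = 3.69e-09), 2.05-fold lower, and with ligand -0.94 (SE 0.0519, 95% CI -1.06 to -0.83, adjusted p = 1.02e-08), 1.92-fold lower. Both intervals span the 2-fold threshold, and the unstimulated value was -0.98 without shSrsf3 -PDGF-AA replicate 1, so passing it in one condition and not in the other does not set the conditions apart (interaction 0.09, SE 0.0727, adjusted p = 0.882).

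Klf10 was lower in shSrsf3 cells in both conditions, with no overlap of samples. The log2 fold change was -0.32 without ligand (SE 0.0486, adjusted p = 0.000129, 1.25-fold lower) and -0.50 with ligand (SE 0.0476, adjusted p = 1.98e-06, 1.41-fold lower). Klf11 was the least abundant factor, at 7.95, 8.34 and 7.33 CPM in unstimulated scramble and 6.75, 6.68 and 6.95 CPM in unstimulated shSrsf3 samples, which did not overlap. Its log2 fold change of -0.21 (SE 0.0809) passed narrowly (adjusted p = 0.0464), and 7 of the 12 fits that left out a sample lost the call, with adjusted p up to 0.159. With ligand the samples of Klf11 overlapped (log2 fold change -0.10, adjusted p = 0.373).

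Klf9 was called higher in shSrsf3 cells in the presence of ligand, at 71.1 to 76.4 CPM against 55.1 to 63.9 CPM (log2 fold change 0.29, SE 0.0854, adjusted p = 0.0148). Without ligand it was 0.03 (SE 0.0855, adjusted p = 0.815), with overlapping samples. The call with ligand was lost without scramble +PDGF-AA replicate 1 (0.23, adjusted p = 0.0680) and without shSrsf3 +PDGF-AA replicate 3 (0.26, adjusted p = 0.0506). Without the 3 libraries of lowest mapping rate, Klf9 was called higher without ligand too (0.27, adjusted p = 0.0105).

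Among the activators, Klf2 and Klf6 were called higher in shSrsf3 cells in both conditions. Klf2 stood at 36.1, 35.4 and 30.3 CPM in unstimulated scramble and 46.1, 45.9 and 43.0 CPM in unstimulated shSrsf3 samples. With ligand it stood at 29.5, 32.3 and 30.7 against 45.7, 43.5 and 46.2 CPM. All shSrsf3 samples lay above all scramble samples, with log2 fold changes of 0.41 (SE 0.0612, adjusted p = 0.000111) and 0.55 (SE 0.0619, adjusted p = 9.36e-06). Klf6 stood at 228 to 249 CPM in unstimulated scramble and 301 to 325 CPM in unstimulated shSrsf3 samples, without overlap. Its log2 fold change was 0.38 without ligand (SE 0.0464, adjusted p = 2.03e-05) and 0.31 with ligand (SE 0.0465, adjusted p = 0.000129).

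Klf5 and Klf7 had lower mean levels in shSrsf3 cells, with a wide spread between scramble replicates. Klf5 stood at 53.2, 51.8 and 37.5 CPM in unstimulated scramble and 31.5, 32.7 and 30.2 CPM in unstimulated shSrsf3 samples. The groups did not overlap, although scramble -PDGF-AA replicate 3 lay nearer to the shSrsf3 samples than to its own group. The log2 fold change of Klf5 was -0.59 (SE 0.124, adjusted p = 0.00165) and with ligand -0.52 (SE 0.125, adjusted p = 0.00470). Without the 3 libraries of low mapping rate it was -0.25 (adjusted p = 0.0821) in unstimulated cells, where replicate 3 is then the one scramble sample, and -0.44 (adjusted p = 0.00118) with ligand.

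Klf7 was called lower with ligand, at 93.7, 121 and 111 CPM in scramble and 92.3, 87.9 and 81.0 CPM in shSrsf3 samples (log2 fold change -0.32, SE 0.0970, adjusted p = 0.0180). The groups were separated by a narrow gap, and the call was lost without scramble +PDGF-AA replicate 2 (-0.23, adjusted p = 0.0832), scramble +PDGF-AA replicate 3 (-0.30, adjusted p = 0.0540) or shSrsf3 +PDGF-AA replicate 3 (-0.26, adjusted p = 0.0733). Without ligand the samples of Klf7 overlapped (-0.19, SE 0.0965, adjusted p = 0.117), and the call was gained without scramble -PDGF-AA replicate 3 (-0.28, adjusted p = 0.0137). Without the 3 libraries of lowest mapping rate, the unstimulated value of Klf7 was 0.022. Scramble -PDGF-AA replicate 3 had the lowest value of its group for 9 of the 10 factors, all but Klf10. It is the only library of its group that is not among those 3. Scramble +PDGF-AA replicate 2, which is among them, had the highest value of its group for 8 of the 10. The part of mapping rate in these values was not tested.

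Klf4 and Klf3 did not pass in either knockdown comparison. Klf4 stood at 287 to 305 CPM in unstimulated scramble and 280 to 285 CPM in unstimulated shSrsf3 samples, with no overlap (log2 fold change -0.08, 95% CI -0.16 to 0.00, adjusted p = 0.114). With ligand it was -0.06 (95% CI -0.14 to 0.02, adjusted p = 0.260). Klf3, the CtBP-recruiting repressor, stayed between 197 and 224 CPM in all 12 samples, with log2 fold changes of -0.01 (95% CI -0.11 to 0.08) and 0.03 (95% CI -0.07 to 0.12). For these factors a difference of more than 0.16 in either direction lay outside both intervals.

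**Figure D5:**
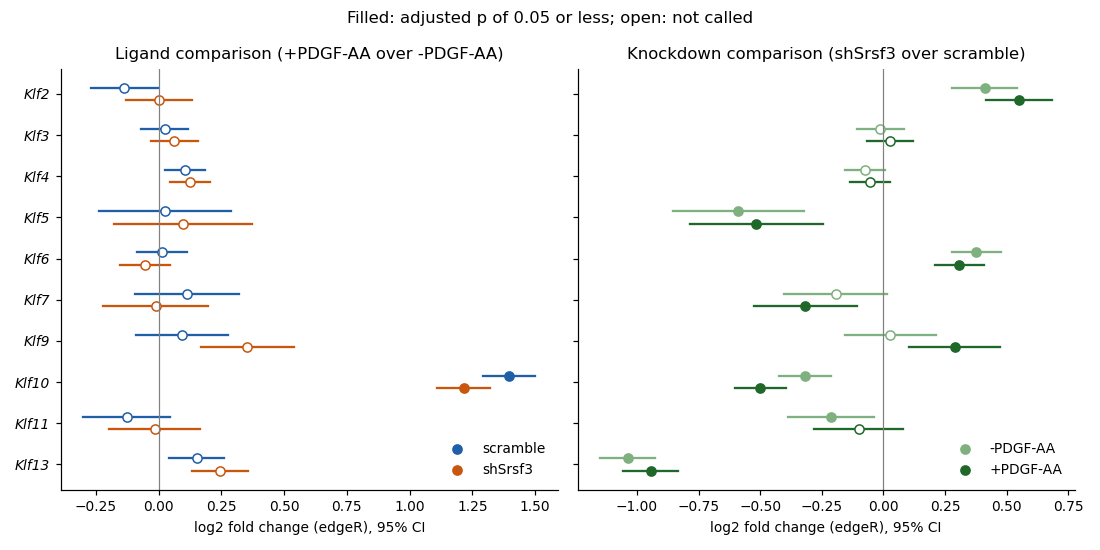
Log2 fold changes of the 10 Krüppel-like factors with 95% confidence intervals, for the ligand comparison in both lines (left) and the knockdown comparison in both conditions (right). Filled points passed an edgeR adjusted p of 0.05, which on the left is Klf10 alone and on the right includes Klf13 at -1.04 and -0.94 and Klf2 at 0.41 and 0.55.

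The patterns of the factors over the 12 samples are described here by Pearson correlation of log2 CPM, with 2 lines and 2 conditions shared by all points. Klf2 and Klf6 followed each other (r = 0.93), and both ran opposite to Klf13 (r = -0.94 and -0.93). Klf13 ran with Klf5 (r = 0.86) and Klf7 (r = 0.74). Klf10 was nearest to Klf4 (r = 0.87), and Klf3 to Klf9 (r = 0.82).

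Genes of the following lists given with no adjusted p were named after their values were seen, to say which genes a count holds. The counts stand beside the shares of all tested genes called higher and lower. With ligand these were 2.00% and 2.04% in scramble and 0.426% and 0.140% in shSrsf3 cells. In the knockdown comparisons they were 22.2% and 23.7% without ligand and 20.3% and 20.7% with ligand. No list was tested as a set. Of 7 other Krüppel-like factors, 4 were tested. Klf8 was called higher in shSrsf3 cells with ligand (log2 fold change 0.75, adjusted p = 0.0113) and also without it (0.67), Klf15 lower without ligand (-0.56, adjusted p = 0.0327), and Klf12 lower in both conditions (-0.49 and -0.46). Klf8 and Klf15 had low levels, at group means of 0.51 to 1.03 and 1.24 to 2.21 CPM. Klf16 was the 1 called with PDGF-AA, with log2 fold changes of 0.43 in scramble and 0.36 in shSrsf3 cells. Of 9 Sp factors, the sister family that binds the GC box, 5 were tested and 0 were called with ligand in either line. Sp7, the osteoblast factor osterix, was called higher in shSrsf3 cells (1.34 with ligand, adjusted p = 0.00443), Sp4 lower without ligand (-0.24, adjusted p = 0.0313), and Sp3 lower in both conditions (-0.16 and -0.16).

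Few cofactors and upstream genes were called with ligand, as were few of all tested genes. Of 12 cofactors, 1 was called with ligand in scramble cells, Wdr5 (0.15), and 0 in shSrsf3 cells. In the knockdown comparison 4 were called without ligand (Wdr5 higher, Ctbp2, Kat2b and Sin3a lower) and 3 with ligand (Hdac1 higher, Ctbp2 and Kat2b lower). Among them Sin3a, the corepressor scaffold bound by Klf9, Klf10, Klf11 and Klf13, had a log2 fold change of -0.19 in unstimulated shSrsf3 cells (edgeR adjusted p = 0.00201). Kat2b, an acetyltransferase, had -0.19 in stimulated shSrsf3 against stimulated scramble cells (edgeR adjusted p = 0.00589). Of 21 receptors, kinases and factors upstream of the family, Pdgfra was the 1 called with ligand (-0.30 in scramble cells), and 7 were called higher and 7 lower in shSrsf3 cells in each condition. The following values compare shSrsf3 with scramble cells. Tgfbr1, the TGFβ type I receptor through which Klf10 was first known to be induced, had a log2 fold change of -0.99 in stimulated cells (edgeR adjusted p = 2.73e-08). Pdgfra, the receptor for PDGF-AA, had -0.53 in unstimulated cells (edgeR adjusted p = 5.33e-06).

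Of 18 tested genes described as targets of these factors, 2 were called higher (Smad7 and Vegfa) and 1 lower (Cdkn1b) with ligand in scramble cells, and Smad7 and Vegfa were the 2 called in shSrsf3 cells. In the knockdown comparison 5 were called higher and 6 lower without ligand, and 5 and 5 with ligand. Eng, a TGFβ coreceptor described as a target of Klf6, had a log2 fold change of -0.74 in unstimulated shSrsf3 cells (edgeR adjusted p = 9.55e-06). Ccnb1, a mitotic cyclin, had 0.62 in stimulated shSrsf3 against stimulated scramble cells (edgeR adjusted p = 0.000615). Of 7 ubiquitin pathway genes tested that act on Krüppel-like proteins, 0 were called with ligand and 3 in each knockdown comparison. In shSrsf3 against scramble cells, Wwp1 was higher and Smurf1 lower in both conditions. Fbxw7 was at -0.35 in unstimulated (edgeR adjusted p = 0.000307) and Vhl at -0.24 in stimulated shSrsf3 cells (edgeR adjusted p = 0.0178). Of 5 tested glucocorticoid-induced genes, 2 were called higher with ligand in each line, Per1 and Sgk1. In each knockdown comparison 2 were called higher, Fkbp5 and Sgk1, and 1 lower, Ddit4 (-0.54 without and -0.44 with ligand). In shSrsf3 against scramble cells, the log2 fold change of Fkbp5 was 0.72 when both were stimulated (edgeR adjusted p = 8.95e-08). That of Sgk1 was 0.60 when both were unstimulated (edgeR adjusted p = 3.53e-07).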

How the data were processed

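Poly(A) RNA of 12 samples was sequenced in pairs of 150 bases with a kit that marks strand. Per the study's methods, the authors trimmed reads with BBDuk, quantified transcripts with Salmon 1.4.0 against a decoy-aware GENCODE M26 (GRCm39) index, and summed them to genes with tximport. The deposited values are the estimated counts per gene that the authors obtained in this way, 16.3% of them not whole, and whether tximport scaled them is not given in the sources used here. How strand was set in Salmon is not given there either.

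Counts were rounded, genes were kept by filterByExpr (minimum count 10), libraries were scaled by TMM, and 1 mean per group was fitted over all 12 samples with edgeR 4.0.16 (R 4.3.3, quasi-likelihood test). P-values were adjusted by Benjamini-Hochberg over 15037 genes, and a gene was called at 0.05 or less. The biological coefficient of variation was 0.0701. CPM are TMM-scaled, and correlations used log2 CPM with a prior count of 2. None of the 66 pairs of libraries was identical. Depths differed between groups (median 32209826 read pairs in shSrsf3 +PDGF-AA and 64688654 in shSrsf3 -PDGF-AA), which limits Klf11 first, at 193 to 521 reads per sample. The script was tested on simulated counts.

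Gene positions, transcript lengths, promoters and UTRs were read from GRCm39 with GENCODE M39, a later annotation of the authors' build, with pysam 0.24.0. Motifs were searched on both strands and can overlap each other. Named genes were the 10 factors, at most 2 called genes with the largest log2 fold change per context list, Srsf3, and the 5 genes most like Klf10 with a mean of 1 CPM or more. The factors and lists were chosen with earlier results of these data known. Alternatives were other size factors, DESeq2 1.42.0, no filter, only the 6 samples compared, a replicate block, thinning to equal depth, leaving out libraries, and other transcript lengths.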

Additional observations from a re-analysis of the deposited data

How the results depend on the processing

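Klf10 kept its rise with ligand and its lower level in shSrsf3 cells, and Klf2, Klf6 and Klf13 their calls in both knockdown comparisons, under every alternative run. The number of factors called with ligand in scramble cells was 1, and became 3 with DESeq2 (Klf4 and Klf13 added), 2 with no low-count filter (Klf13 added) and 1 to 2 with single samples left out, the 2 without scramble -PDGF-AA replicate 3 (Klf2 added). In shSrsf3 cells it was 1, and became 4 with DESeq2 (Klf4, Klf9 and Klf13 added). It was 3 with no filter and 3 with only the 6 samples (Klf9 and Klf13 added), and 1 to 3 with single samples left out. It was 3 without scramble -PDGF-AA replicate 3 (Klf9 and Klf13 added) and 2 without shSrsf3 -PDGF-AA replicate 3 (Klf13 added, edgeR adjusted p = 0.0177). Without the 3 libraries of lowest mapping rate, the log2 fold changes there were 0.36 for Klf9 and 0.25 for Klf13. With single samples left out, 5 to 7 factors were called in each knockdown comparison and 0 to 0 in the interaction.

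Values that changed sign were all uncalled. They were Klf2 with ligand in shSrsf3 cells (-0.0013 with no filter, -0.012 with thinning) and Klf7 there (0.0046 with thinning). Without the 3 libraries of lowest mapping rate, they were Klf3 (0.079) and Klf7 (0.022) in unstimulated knockdown cells, and the interactions of Klf3 (-0.024), Klf4 (-0.016) and Klf5 (-0.19). That fit has 1 scramble -PDGF-AA sample, assumed to vary like the other groups. With single samples left out, the ranges that crossed 0 were, for ligand in scramble cells, Klf3 (-0.012 to 0.058), Klf5 (-0.11 to 0.12), Klf6 (-0.021 to 0.037) and Klf9 (-0.0082 to 0.16). For ligand in shSrsf3 cells they were Klf2 (-0.026 to 0.030), Klf5 (-0.018 to 0.20), Klf7 (-0.053 to 0.040) and Klf11 (-0.088 to 0.037). For knockdown they were Klf3 (-0.047 to 0.021) and Klf9 (-0.072 to 0.095) without ligand and Klf3 (-0.0078 to 0.058) with ligand, and for the interaction Klf4 (-0.018 to 0.039) and Klf5 (-0.049 to 0.21). The cause was not tested.

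The samples were treated as unpaired. Deviations of same-numbered samples correlated at -0.14 to 0.20 between groups, within the -0.34 to 0.24 of differently numbered samples. With 3 replicates per group this cannot decide whether same-numbered samples were handled together. With a replicate block, 625 and 93 genes were called with ligand in scramble and shSrsf3 cells, 6982 and 6223 in the knockdown comparisons without and with ligand, and 1 in the interaction. Among the 10 factors it moved the call of Klf11 in unstimulated cells (-0.21, adjusted p = 0.0626). Klf11 lost that call under all 7 alternatives other than the single samples left out.

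With single samples left out, genes called over the whole table ran from 243 to 1472 for ligand in scramble cells (1472 without scramble -PDGF-AA replicate 3) and from 23 to 168 in shSrsf3 cells. Such counts also moved by more than 1.5 times for ligand in scramble cells with no filter (1289) or only the 6 samples (247 against 608), for ligand in shSrsf3 cells with DESeq2 (213), no filter (374), only the 6 samples (201) or 9 libraries (231 against 85), and for the interaction with DESeq2 (26), no filter (218), 9 libraries (16), thinning (1) or the block (1 against 2), and from 1 to 6 with single samples left out. Levels per kb with the median transcript length were 20.8 for Klf2, 206 for Klf3, 346 for Klf4, 16.6 for Klf5, 26.8 for Klf10, 2.40 for Klf11 and 22.05 for Klf13, and Klf3 was at 40.1 with the canonical transcript, which was added after the data were seen.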

Other observations

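Klf10 and most of the 22 other early response genes differed in level between the lines. Without ligand, 16 of the 22 were called higher and 1 lower in shSrsf3 cells (median log2 fold change 0.42), beside 22.2% and 23.7% of all tested genes. Klf10 was called lower (-0.32), and Egr3, among the 22, was not called (0.08, edgeR adjusted p = 0.650). The interaction was below 0, a smaller rise or a larger fall in shSrsf3 cells, for 19 of the 22 and for Klf10. Its median was -0.20 over the 22 and 0.0048 over all tested genes. The unstimulated samples enter both the interaction and the knockdown comparison without ligand. A higher unstimulated shSrsf3 value lowers the interaction, so these readings are not independent. The unadjusted p of the interaction was under 0.05 for 10 of the 22, beside 833 of 15037 genes, and 0 of the 22 were called by edgeR. Of the 10 Krüppel-like factors 3 had an interaction below 0 and 7 above 0.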
